A study of Mus musculus with 17 samples.

Results

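Syngeneic grafts of Smarcb1-null mouse tumors, grown in the flank, were compared with Smarcb1-null tumors of the central nervous system (CNS) that carry the Myc subtype label. The 3 graft libraries and the 4 Myc CNS tumor libraries were taken by their titles, which makes 7 of the 17 libraries in the series, and every gene that passed the filter on low counts was tested (21494 genes). Both groups were labelled C57BL/6J with the genotype SMARCB1 -/-, so the loss of Smarcb1 is shared and the labelled site and tumor class differ. The series models rhabdoid tumor, a cancer of early childhood defined by loss of SMARCB1, and also holds 4 extracranial tumors, 3 CNS tumors of the SHH subtype and 3 wild-type healthy brains, which entered the fit but not the comparison. The series text describes the 14 tumors as separate. The labels used here give no age, sex, Cre driver, host, passage number or parent tumor, so whether the grafts derive from 1 tumor or from a tumor of the Myc subtype is not known. The p-values below measure only the spread between these samples.

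SMARCB1 is a core subunit of SWI/SNF, a chromatin remodelling complex that opens enhancers and promoters. A syngeneic graft places tumor cells in a mouse of the same inbred strain, which avoids rejection over strain differences. That mouse supplies the vessels, the stroma and the immune cells of the graft from the surrounding peripheral tissue. A tumor in the brain grows instead among neurons, glia and microglia, the resident macrophages of the brain, with vessels that form a blood-brain barrier.

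Levels are given as CPM, read counts scaled to library size with TMM factors, in the order of the library numbers. A log2 fold change is graft over Myc tumor ± SE, and a gene was called at an adjusted p under 0.05 (edgeR quasi-likelihood test, Benjamini-Hochberg over all genes tested). The SE is the absolute log2 fold change divided by the square root of the F statistic of that test. It therefore adds nothing independent of the p-value. Total counts ran from 36951431 to 96214427 in the grafts and from 18685672 to 114338058 in the Myc tumors. Smarcb1 (chromosome 10, 75896769 to 75921617, minus strand, GRCm38) had 31.1, 30.7 and 25.1 CPM in the grafts, against 14.8, 8.86, 7.87 and 10.3 CPM in the Myc tumors. The healthy brains of the series averaged 124 ± 6.94 CPM (SD, n = 3). The grafts were higher than the Myc tumors without overlap, but the difference was not called (log2 fold change 1.47 ± 0.62, adjusted p = 0.155), and the counts do not separate transcripts of tumor cells from those of host cells. Xist, transcribed from the inactive X chromosome, had 542, 802 and 1107 CPM in the grafts, against 1086, 700.2, 0.340 and 0.448 CPM in the Myc tumors. Ddx3y, a gene of the Y chromosome, had 57.7, 50.03 and 0.0313 CPM in the grafts, against 0, 0, 73.4 and 79.2 CPM in the Myc tumors. Graft 1 and graft 2 therefore held both transcripts, whereas each Myc tumor held 1 of them above 1 CPM. Myc tumor 1 also held pituitary hormone transcripts, chosen after their values were seen, with 71.4 CPM of Gh, 56.1 of Prl and 64.3 of Pomc. Among the other 6 libraries the highest levels were 0.533, 0.0698 and 0.866 CPM.

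The grafts were more alike than the Myc tumors. Pairwise correlations of log2 CPM were taken over genes, and genes do not stand for replicates. They were 0.971 to 0.981 between grafts (3 pairs), 0.899 to 0.929 between Myc tumors (6 pairs) and 0.892 to 0.903 between a graft and a Myc tumor (12 pairs). The median SD of log2(CPM + 1) over the genes tested was 0.136 among the grafts and 0.342 among the Myc tumors, or 0.241 to 0.339 over any 3 of the 4 Myc tumors. On the first principal component of the 7 libraries, which held 42% of the variance, the grafts lay between -134.59 and -118.88 and the Myc tumors between 77.45 and 100.38. The second (23.3%) set Myc tumor 2 apart from the other 6 libraries, at -188.81.

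Of the 21494 genes, 670 were called higher in the grafts (3.12%) and 620 lower (2.88%), or 1290 in either direction (6%). The counts of list members below are to be read against these shares. The median log2 fold change was 2.28 among the genes called higher and -4.63 among those called lower, against -0.11 over all genes tested. The libraries of both groups did not overlap for 662 of the genes called higher and for 530 of those called lower, against 25.2% of all genes tested. Of the genes called lower, 242 (39.0%) ranged over 10-fold among the Myc tumors, whereas 18 of the genes called higher (2.69%) ranged over 10-fold among the grafts. These ratios were taken after 0.1 CPM was added to each level. The counts rested on few libraries. Without graft 1, graft 2 and graft 3, 88, 46 and 131 genes were called higher and 29, 12 and 29 lower. Of the 140 called genes named below, 26, 12 and 28 were still called without these grafts, and none changed sign. Without Myc tumor 1, which held the pituitary transcripts, 588 genes were called higher and 595 lower, and without Myc tumor 2, 475 and 781. Without Myc tumor 3 and Myc tumor 4, 326 and 340 genes were called higher and 461 and 420 lower. DESeq2 called 1530 genes higher and 2223 lower, and limma voom 2108 and 1922.

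The largest increases among the genes called, with a mean of at least 10 CPM in the grafts and no overlap of libraries, were led by Gbp2b, an interferon-induced guanylate-binding GTPase. Gbp2b had 53.5, 234 and 87.6 CPM in the grafts, against 0.0547, 0.0521, 0.0349 and 0.164 CPM in the Myc tumors (log2 fold change 10.55 ± 1.56, adjusted p = 0.00883). Retnla, a secreted product of alternatively activated macrophages, had 12.3, 149.6 and 112 CPM in the grafts, against 0.109, 0.156, 0.0611 and 0.0598 CPM in the Myc tumors (log2 fold change 10.04 ± 1.89, adjusted p = 0.0157). Ccl24, a chemokine that attracts eosinophils, had 18.3, 130.1 and 6.16 CPM in the grafts, against 0.109, 0.156, 0.166 and 0.120 CPM in the Myc tumors (log2 fold change 8.51 ± 1.39, adjusted p = 0.00973). Each of the 3 genes was below 0.2 CPM in every Myc tumor and above 5 CPM in every graft, with graft 2 highest. Pla2g2d, a secreted phospholipase of lymphoid tissue, ranged over 27.5 to 104 CPM in the grafts and 0 to 0.164 CPM in the Myc tumors. Car4, a membrane carbonic anhydrase, had 337, 309 and 6.54 CPM in the grafts, against 2.95, 0.991, 0.821 and 0.777 CPM in the Myc tumors, so that graft 3 stood far below the other grafts and still above every Myc tumor. Acot3 and Acot5, which encode acyl-CoA thioesterases of peroxisomes, reached 1.72 to 29.9 CPM in the grafts and 0 to 0.0598 CPM in the Myc tumors for Acot3, and 5.03 to 46.9 CPM in the grafts and 0 to 0.0598 CPM in the Myc tumors for Acot5, again with graft 3 lowest. The other 5 genes of the 12 were Ear2, a ribonuclease of the eosinophil-associated family, Cldn9, a claudin of tight junctions, Apol7c, an apolipoprotein L, C1qtnf9, a secreted C1q-related protein, and Shisal2a, with log2 fold changes of 7.91, 7.16, 7.15, 7.09 and 7.27. Without graft 1, graft 2 and graft 3, 10, 6 and 11 of the 12 were still called. Gbp2b, Acot3, Acot5, Ear2 and Retnla have close copies in the genome, so the split of reads among the copies is uncertain.

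**Figure D1:**
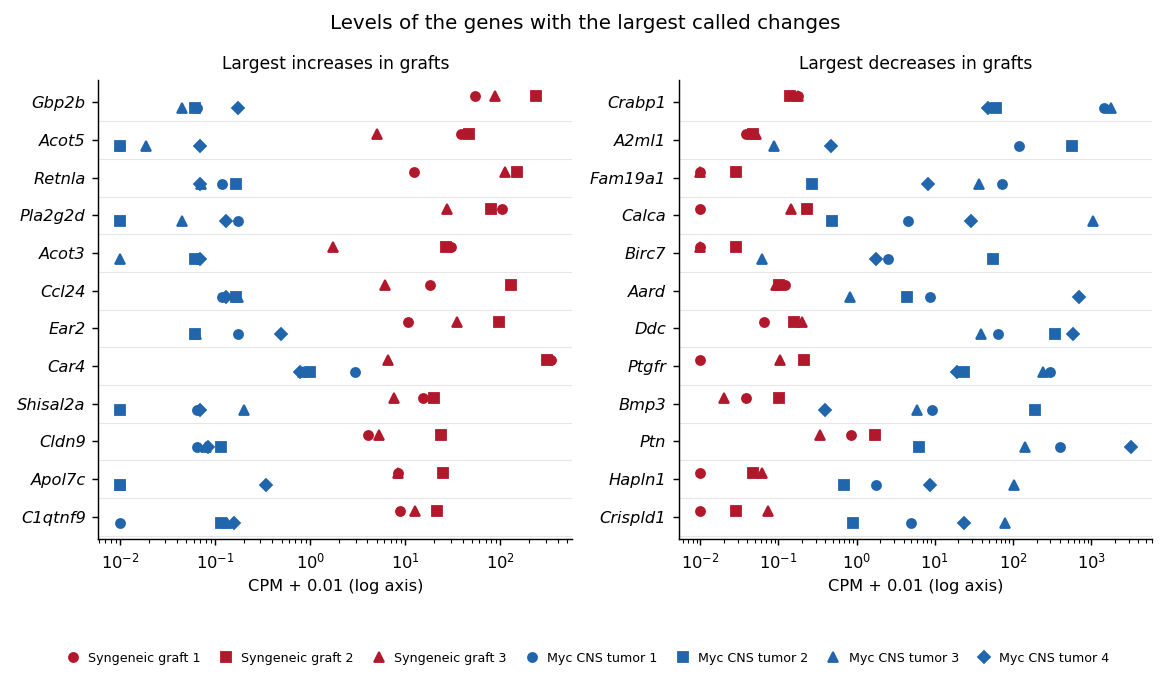
Level of the 12 largest increases (left) and 12 largest decreases (right) in each library, as CPM + 0.01 on a log axis. Red symbols are the 3 grafts and blue symbols the 4 Myc CNS tumors, with the symbol giving the library number. The red and blue symbols of a gene do not overlap, and the blue symbols of the decreases spread widely, as for Aard with 0.803 to 703 CPM.

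Genes of lymphocytes were among those higher in the grafts. Of 30 genes of T and NK cells tested, 10 rose and 20 did not pass the test, with a median log2 fold change of 3.18 against -0.11 over all genes. Cd4, the coreceptor of helper T cells, had 33.8, 38.2 and 50.3 CPM in the grafts, against 5.19, 1.30, 3.90 and 3.92 CPM in the Myc tumors (log2 fold change 3.51 ± 0.54, adjusted p = 0.00890). Trac, the constant region of the T cell receptor alpha chain, had 6.78, 22.4 and 16.04 CPM in the grafts, against 1.37, 0.313, 0.236 and 2.09 CPM in the Myc tumors (log2 fold change 3.90 ± 0.96, adjusted p = 0.0330). Klrk1, the activating receptor NKG2D of NK and T cells, had 29.5, 37.0 and 46.3 CPM in the grafts, against 2.90, 0.209, 2.44 and 1.84 CPM in the Myc tumors (log2 fold change 4.34 ± 0.96, adjusted p = 0.0284). Graft 1 was the lowest graft for all 3 genes and still exceeded every Myc tumor. Cd28, a costimulatory receptor, Cd247, the zeta chain of the T cell receptor complex, and Trbc2, the constant region of the beta chain, rose by 3.72 ± 0.68, 3.23 ± 0.66 and 3.35 ± 0.79 on the log2 scale. The summed level of the 7 T and NK cell markers, Cd3d, Cd3e, Cd3g, Cd4, Cd8a, Trac and Ncr1, was 76.0 to 159 CPM in the grafts and 2.09 to 15.03 CPM in the Myc tumors, and it averaged 25.8 CPM in the extracranial tumors of the series. In bulk RNA, more cells of a type and more RNA of a gene per cell cannot be told apart. Without graft 1, graft 2 and graft 3 the count of T and NK cell genes was 2, 1 and 2, without Myc tumor 1, 2, 3 and 4 it was 7, 7, 4 and 6, and it was 22 by DESeq2 and 25 by limma voom.

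Of 11 cytotoxic effector genes, 5 rose (median log2 fold change 3.03). Ifng, the gene of interferon gamma, had 0.281, 0.848 and 0.741 CPM in the grafts, against 0.0547, 0, 0.0524 and 0.0448 CPM in the Myc tumors (log2 fold change 3.83 ± 0.66, adjusted p = 0.0181). The level was low in both groups, and Myc tumor 2 had no count. Gzmk, a granzyme of lymphocyte granules, Fasl, a death ligand, Xcl1, a chemokine of NK and CD8 T cells, and Tnfsf10, the death ligand TRAIL, rose by 4.60, 2.90, 4.20 and 2.46 on the log2 scale. Gzmc, another granzyme, went the other way without being called: it ranged over 0.309 to 0.825 CPM in the grafts and 0.359 to 76.3 CPM in the Myc tumors (adjusted p = 0.0534). Among 16 checkpoint genes 3 rose. Pdcd1lg2, the ligand PD-L2, had 3.46, 49.7 and 7.33 CPM in the grafts, against 0.219, 0.0521, 0.244 and 0.269 CPM in the Myc tumors (log2 fold change 6.61 ± 0.96, adjusted p = 0.00871). Graft 2 was the highest, and the lowest graft still exceeded every Myc tumor. Lag3 and Tigit, inhibitory receptors of lymphocytes, rose by 2.63 ± 0.58 and 4.10 ± 0.96. Of 14 genes of B and plasma cells 3 rose, namely Cd22, an inhibitory B cell receptor, Cd79b, a signalling chain of the B cell receptor, and Ighm, the heavy chain of immunoglobulin M. Cd22 had 56.4, 52.9 and 79.0 CPM in the grafts, against 4.76, 3.13, 6.28 and 7.74 CPM in the Myc tumors (log2 fold change 3.51 ± 0.56, adjusted p = 0.00934). Leaving out any 1 graft left at most 1 of the cytotoxic, checkpoint and B cell genes of each list called (adjusted p of 0.0468 to 0.0739 for Ifng, 0.0671 to 0.0860 for Lag3 and 0.0351 to 0.0371 for Cd22). Leaving out Myc tumor 1, 2, 3 and 4 left 2, 2, 3 and 2 cytotoxic genes called higher, and the same omissions left 5, 4, 3 and 1 checkpoint genes and 3, 3, 3 and 3 B cell genes. In these fits 0, 1, 0 and 1 cytotoxic genes were called lower.

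Antigen presentation genes were among those higher in the grafts. Of 22 genes of MHC class I presentation, 9 rose and 13 did not pass the test (median log2 fold change 1.34). Psmb8, a catalytic subunit of the immunoproteasome, had 197, 239 and 233 CPM in the grafts, against 63.3, 73.9, 77.2 and 50.9 CPM in the Myc tumors (log2 fold change 1.75 ± 0.27, adjusted p = 0.00890). Tap1, a subunit of the peptide transporter into the endoplasmic reticulum, had 209.6, 243 and 230.1 CPM in the grafts, against 69.6, 83.0, 101 and 61.6 CPM in the Myc tumors (log2 fold change 1.53 ± 0.29, adjusted p = 0.0164). Every graft exceeded every Myc tumor by more than 2-fold for these 2 genes. Psmb9, a further immunoproteasome subunit, Psme2, a subunit of the proteasome activator, and H2-Q6 and H2-Q7, class I heavy chains whose similar sequences make their counts uncertain, rose by 2.28, 0.98, 2.27 and 2.43 on the log2 scale. Of 11 class II genes 3 rose and 8 did not pass the test (median 2.47), namely Ciita, the class II transactivator, and H2-DMa and H2-DMb1, chains of the protein that loads peptide. Ciita had 78.8, 89.0 and 71.6 CPM in the grafts, against 7.16, 0.574, 1.28 and 15.2 CPM in the Myc tumors (log2 fold change 3.71 ± 0.95, adjusted p = 0.0371). H2-Ab1, a class II beta chain, ranged over 866 to 1802 CPM in the grafts and 25.9 to 281 CPM in the Myc tumors and was not called (adjusted p = 0.0940). Without any 1 graft, 1 of the class I genes was called, and the adjusted p of Ciita was 0.0934 to 0.106. Without Myc tumor 1, 2, 3 and 4, 5, 5, 5 and 4 class I genes were called, and without the same tumors 3, 3, 1 and 2 class II genes were.

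Interferon response genes were also among those higher in the grafts. Of 40 tested, 4 rose (10%, against 3.12% of all genes), and 36 had a log2 fold change above 0 (median 0.93). Gbp5, a guanylate-binding protein, had 84.6, 84.9 and 76.4 CPM in the grafts, against 17.3, 6.83, 11.3 and 13.8 CPM in the Myc tumors (log2 fold change 2.74 ± 0.69, adjusted p = 0.0356). Parp14, an ADP-ribosyltransferase, and Dhx58, a regulator of cytosolic RNA sensing, rose by 1.56 ± 0.32 and 1.32 ± 0.34. The libraries of these 3 genes did not overlap, and Myc tumor 2 was the lowest for Gbp5 and Parp14. Of 15 nucleic acid sensor genes 6 rose (median 1.34). Samhd1, an enzyme that lowers the pool of DNA precursors, had 552, 551 and 525 CPM in the grafts, against 202, 94.0, 184 and 114 CPM in the Myc tumors (log2 fold change 1.87 ± 0.31, adjusted p = 0.0103). Cgas, the sensor of cytosolic DNA, had 57.4, 45.4 and 44.3 CPM in the grafts, against 19.2, 13.5, 21.7 and 20.4 CPM in the Myc tumors (log2 fold change 1.39 ± 0.27, adjusted p = 0.0167), and its effector Tmem173, known as STING, ranged over 80.0 to 96.2 CPM in the grafts and 8.40 to 44.6 CPM in the Myc tumors. The other 3 were Ikbke, a kinase that activates interferon regulatory factors, Tlr9, an endosomal receptor of DNA, and Aim2, which assembles an inflammasome on DNA, with log2 fold changes of 2.06, 2.92 and 1.34. Each of the 4 interferon response genes lost its call without any 1 graft (adjusted p of 0.0934 to 0.106 for Gbp5), and without Myc tumor 1, 2, 3 and 4 the count was 3, 3, 3 and 1. The count of sensor genes was 1, 1 and 3 without graft 1, 2 and 3 and 7, 5, 4 and 4 without Myc tumor 1, 2, 3 and 4. The summed level of 7 macrophage markers was also higher in every graft than in every Myc tumor. It was 4955 to 8602 CPM in the grafts and 1331 to 4220.4 CPM in the Myc tumors, and the part of macrophages in the result was not tested.

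The interferon gamma-activated site is known by the letters TTCNNNGAA, and interferon regulatory factors bind repeats of the kind GAAANNGAAA. The promoters of the called genes of the interferon, class I and class II lists and of Gbp2b were searched for both. RefSeq windows (GRCm38.p6, 250 bases before to 50 after the start of the gene) were at hand for 13 of 17 genes. On both strands, TTCNNNGAA occurred in 2 of the 13 windows, those of Gbp5 and Psmb8, against 9.55% of the 27025 gene symbols in the table. GAAANNGAAA occurred in 3, those of Gbp5, Gbp2b and H2-T23, a class I gene that rose by 1.85 ± 0.48, against 3.99%. The windows with a match are shown because they belong to genes that rose together, with both motifs in capitals. They lie at chr3:142496684-142496983, plus strand, for Gbp5, chr3:142594597-142594896, plus strand, for Gbp2b, chr17:34197945-34198244, plus strand, for Psmb8, and chr17:36032652-36032951, minus strand, for H2-T23, each printed 5′ to 3′ along its gene. Gbp5 has matches to TTCNNNGAA 245 and 52 bases before the start, with the match to GAAANNGAAA between them, 165 bases before it. A match to GAAANNGAAA on the opposite strand reads as TTTCNNTTTC here. A match is a description of the letters and not of a bound site.
Gbp5: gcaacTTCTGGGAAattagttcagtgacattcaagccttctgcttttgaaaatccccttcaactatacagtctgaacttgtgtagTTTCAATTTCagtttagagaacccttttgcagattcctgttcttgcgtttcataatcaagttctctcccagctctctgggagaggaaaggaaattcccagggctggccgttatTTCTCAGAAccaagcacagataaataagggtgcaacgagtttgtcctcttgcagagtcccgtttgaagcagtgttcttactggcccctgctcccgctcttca
Gbp2b: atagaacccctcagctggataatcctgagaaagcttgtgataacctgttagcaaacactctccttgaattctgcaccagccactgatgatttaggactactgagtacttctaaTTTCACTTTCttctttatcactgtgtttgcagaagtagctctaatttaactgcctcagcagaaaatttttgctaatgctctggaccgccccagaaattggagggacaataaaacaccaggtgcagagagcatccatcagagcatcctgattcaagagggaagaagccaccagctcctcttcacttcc
Psmb8: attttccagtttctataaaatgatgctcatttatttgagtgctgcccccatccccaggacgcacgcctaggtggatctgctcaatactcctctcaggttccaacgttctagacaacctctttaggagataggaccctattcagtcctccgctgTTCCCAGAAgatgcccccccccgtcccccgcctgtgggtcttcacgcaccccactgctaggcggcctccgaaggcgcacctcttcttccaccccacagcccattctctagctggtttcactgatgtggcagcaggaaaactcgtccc
H2-T23: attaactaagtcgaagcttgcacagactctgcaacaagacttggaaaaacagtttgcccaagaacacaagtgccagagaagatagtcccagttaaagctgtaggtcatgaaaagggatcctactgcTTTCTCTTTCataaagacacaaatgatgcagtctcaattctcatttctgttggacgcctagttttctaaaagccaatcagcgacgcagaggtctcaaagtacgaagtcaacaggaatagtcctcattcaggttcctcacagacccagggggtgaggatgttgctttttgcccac

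Macrophage genes were among those higher in the grafts. Of 30 macrophage and monocyte genes 5 rose and 25 did not pass the test (median log2 fold change 1.54), and each of the 30 had a log2 fold change above 0. Adgre1, the F4/80 antigen of tissue macrophages, had 502, 405 and 359.6 CPM in the grafts, against 107, 35.0, 64.5 and 70.7 CPM in the Myc tumors (log2 fold change 2.61 ± 0.62, adjusted p = 0.0293). Csf1r, the receptor for the growth factor on which macrophages depend, had 1252, 871 and 915 CPM in the grafts, against 606, 226, 194 and 182 CPM in the Myc tumors (log2 fold change 1.75 ± 0.48, adjusted p = 0.0453). Cd300a and Fcgr2b, inhibitory receptors, and Aif1, a calcium-binding protein of macrophages and microglia, rose by 2.65, 2.18 and 2.34 on the log2 scale. Myc tumor 1 was the highest Myc tumor for Adgre1, Csf1r, Fcgr2b and Aif1. Each of the 5 lost its call without any 1 graft (adjusted p of 0.0789 to 0.0987 for Adgre1), and without Myc tumor 1, 2, 3 and 4 the count was 10, 1, 1 and 1.

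Of 23 genes of macrophage activation 9 rose, Retnla, Ccl24 and Ear2 among them. Clec10a, a lectin of alternatively activated macrophages and dendritic cells, had 99.2, 98.5 and 217 CPM in the grafts, against 2.62, 2.82, 3.52 and 2.14 CPM in the Myc tumors (log2 fold change 5.64 ± 1.08, adjusted p = 0.0167). Lpl, lipoprotein lipase, which releases fatty acids from circulating lipoproteins, had 117, 293 and 166 CPM in the grafts, against 4.81, 3.44, 12.6 and 14.7 CPM in the Myc tumors (log2 fold change 4.42 ± 0.83, adjusted p = 0.0157). Il10, an anti-inflammatory cytokine, ranged over 3.43 to 6.14 CPM in the grafts and 0.219 to 0.939 CPM in the Myc tumors (log2 fold change 3.38 ± 0.70, adjusted p = 0.0196). The libraries of these genes did not overlap. Without graft 1, 2 and 3 the count was 5, 2 and 4, and without Myc tumor 1, 2, 3 and 4 it was 7, 8, 7 and 7. Pparg, a nuclear receptor of adipocytes and of some macrophages, had 8.89, 19.9 and 17.7 CPM in the grafts, against 1.91, 0.626, 1.34 and 1.43 CPM in the Myc tumors (log2 fold change 3.54 ± 0.80, adjusted p = 0.0257). It was the one gene called of 14 adipocyte genes, whose median log2 fold change was 0.02. Fabp4, a fatty acid binding protein of adipocytes, macrophages and endothelium, ranged over 73.3 to 149.7 CPM in the grafts and 0.194 to 4.95 CPM in the Myc tumors and was not called (adjusted p = 0.0803). The 4 adipocyte markers Adipoq, Plin1, Cidec and Lep summed to 0.0281 to 1.34 CPM in the grafts and 0.140 to 0.523 CPM in the Myc tumors.

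Of 11 genes of microglia identity, edgeR called 0 (1 higher and 1 lower at an unadjusted p under 0.05, 0 higher and 1 lower by DESeq2, 1 higher and 2 lower by limma voom). The median log2 fold change was 1.04, with 8 of the 11 genes above 0 and 3 below. Olfml3, a secreted protein of microglia and mesenchyme, had 125, 291 and 179.9 CPM in the grafts, against 521, 321, 765 and 666 CPM in the Myc tumors (adjusted p = 0.0592). Tmem119, a microglial membrane protein, ranged over 2.17 to 24.9 CPM in the grafts and 13.6 to 119 CPM in the Myc tumors, and P2ry12, the microglial ADP receptor, over 21.99 to 48.9 CPM in the grafts and 7.73 to 32.1 CPM in the Myc tumors, so that the groups overlapped. The 6 microglia markers summed to 63.3 to 293 CPM in the grafts and 78.7 to 386 CPM in the Myc tumors, highest in Myc tumor 1. Of 15 dendritic cell genes 3 rose: Clec9a, a receptor for dead cells, and Xcr1, the receptor for Xcl1, both of the cross-presenting type, and Irf8, the transcription factor of that lineage. Clec9a had 13.3, 32.4 and 10.8 CPM in the grafts, against 0.492, 0, 0.166 and 0.583 CPM in the Myc tumors (log2 fold change 5.90 ± 1.27, adjusted p = 0.0227), and no count was seen in Myc tumor 2. Irf8 averaged 145 ± 6.51 CPM in the grafts and 38.1 ± 11.9 CPM in the Myc tumors (SD, n = 3 and 4). Each of the 3 lost its call without any 1 graft (adjusted p of 0.104 to 0.113 for Irf8), and without Myc tumor 1, 2, 3 and 4 the count was 2, 2, 1 and 2. Of 16 neutrophil genes, edgeR called 0 (3 higher and 3 lower at an unadjusted p under 0.05, 2 higher and 2 lower by DESeq2, 2 higher and 1 lower by limma voom). Of 9 genes of mast cells and eosinophils, edgeR called 0 (3 higher and 1 lower at an unadjusted p under 0.05, 0 higher and 1 lower by DESeq2, 2 higher and 0 lower by limma voom), with a median log2 fold change of -2.02, or -1.73 with 1 gene that has no count in a group set to its bound.

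Among 27 chemokines and receptors 4 rose, although the median log2 fold change was 0.12. Ccl8, which attracts monocytes and T cells, had 459, 754 and 980.3 CPM in the grafts, against 7.71, 11.4, 35.8 and 14.2 CPM in the Myc tumors (log2 fold change 5.401 ± 1.08, adjusted p = 0.0173). Ccl8 and its neighbour genes are similar in sequence, so its counts are uncertain. Cxcl9, an interferon gamma-induced ligand, had 98.5, 311 and 164 CPM in the grafts, against 5.47, 1.15, 0.576 and 3.26 CPM in the Myc tumors (log2 fold change 6.21 ± 1.73, adjusted p = 0.0483), and its receptor Cxcr3, of activated T and NK cells, ranged over 7.82 to 8.94 CPM in the grafts and 0.104 to 1.57 CPM in the Myc tumors (log2 fold change 3.42 ± 0.82, adjusted p = 0.0310). Ccl6, a chemokine of myeloid cells, rose by 2.97 ± 0.79. Of 16 complement genes 3 rose (median 1.44). Cfp, properdin, which stabilises the convertase of the alternative pathway, had 285, 278 and 273 CPM in the grafts, against 61.4, 50.8, 48.5 and 38.2 CPM in the Myc tumors (log2 fold change 2.49 ± 0.36, adjusted p = 0.00871). C3, the central component, ranged over 154 to 335 CPM in the grafts and 6.00 to 64.4 CPM in the Myc tumors (log2 fold change 3.07 ± 0.83, adjusted p = 0.0437), and C2, of the classical pathway, over 5.23 to 11.3 CPM in the grafts and 0.747 to 3.02 CPM in the Myc tumors. Without any 1 graft the chemokine genes lost their calls (adjusted p of 0.0513 to 0.0583 for Ccl8), and 1 complement gene was called. With Myc tumor 1, 2, 3 or 4 left out in turn, 2, 2, 1 and 2 chemokine genes were called, and without the same tumors 2, 3, 1 and 1 complement genes were.

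**Figure D2:**
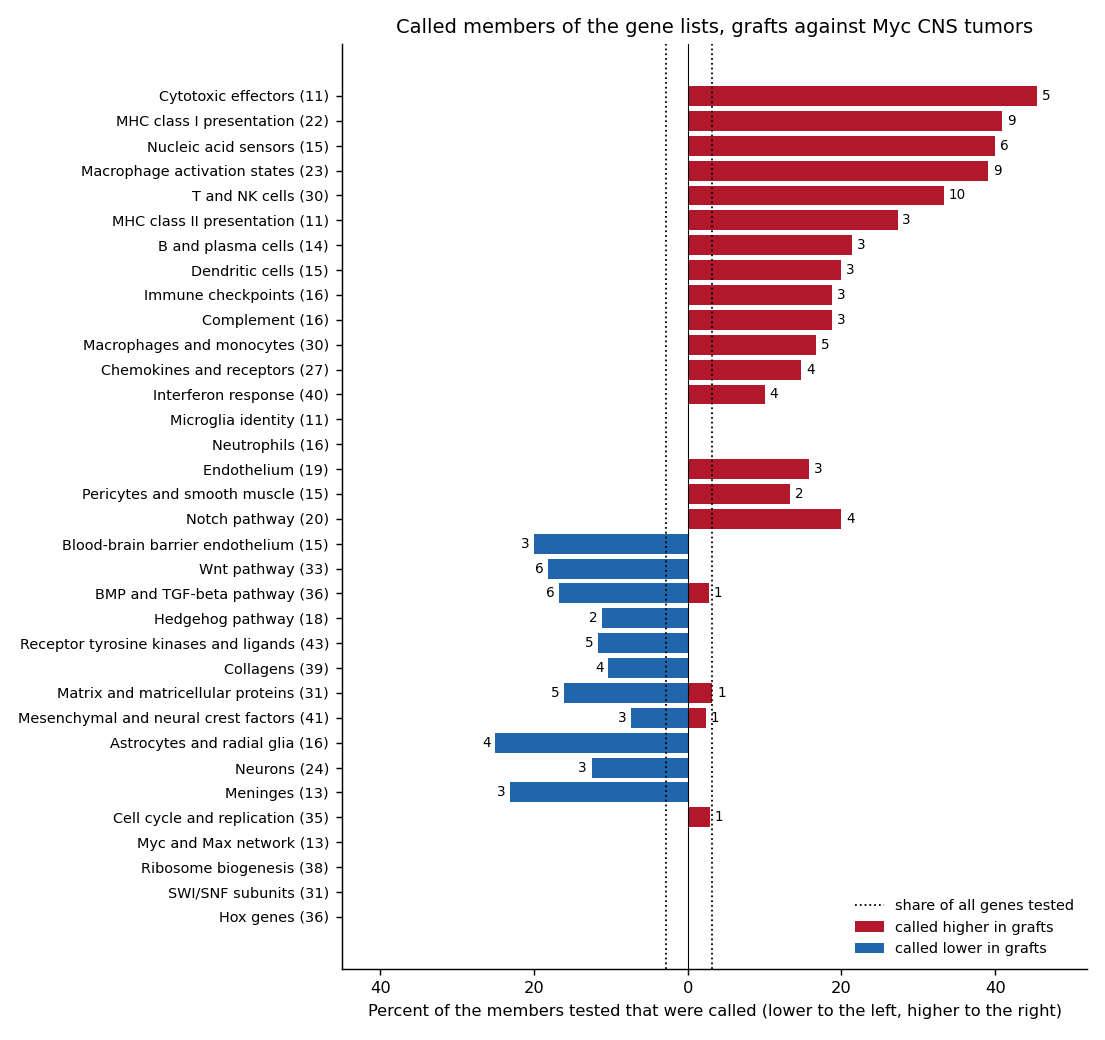
Share of the tested members of each gene list shown that was called higher (red, to the right) or lower (blue, to the left) in the grafts, in percent, with the number of called genes at the end of each bar and the number tested in parentheses. Dotted lines mark the share over all genes tested, 3.12% higher and 2.88% lower. The bars of the immune lists shown point right, except that the microglia and neutrophil lists have none, and bars of developmental signalling, matrix and glial lists mainly point left.

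Some vascular genes were among those higher in the grafts. Of 19 endothelial genes 3 rose (median log2 fold change 1.08). Esm1, a proteoglycan of sprouting vessels, had 82.9, 157 and 51.7 CPM in the grafts, against 6.72, 7.04, 2.10 and 4.23 CPM in the Myc tumors (log2 fold change 4.28 ± 0.81, adjusted p = 0.0157). Cdh5, the cadherin of endothelial junctions, had 142, 116 and 154 CPM in the grafts, against 65.8, 22.3, 29.1 and 37.3 CPM in the Myc tumors (log2 fold change 1.83 ± 0.46, adjusted p = 0.0358), and Robo4, a guidance receptor of vessels, rose by 1.73 ± 0.43. Of 15 genes of pericytes and smooth muscle 2 rose, Abcc9 and Kcnj8, which encode the subunits of the potassium channel of pericytes. Abcc9 had 70.8, 74.3 and 58.0 CPM in the grafts, against 17.6, 10.5, 13.6 and 22.2 CPM in the Myc tumors (log2 fold change 2.08 ± 0.36, adjusted p = 0.0115), and Kcnj8 ranged over 25.3 to 28.0 CPM in the grafts and 3.29 to 7.54 CPM in the Myc tumors. Both genes lie on chromosome 6. Stab2, a scavenger receptor of sinusoidal and lymphatic endothelium, ranged over 3.88 to 11.3 CPM in the grafts and 0.179 to 0.492 CPM in the Myc tumors (log2 fold change 4.80 ± 1.12, adjusted p = 0.0287). It was the one gene called of 9 genes of lymphatic endothelium, whose median log2 fold change was 0.02, with 3 higher and 4 lower at an unadjusted p under 0.05. Of 20 Notch pathway genes 4 rose (median 0.77, or 0.46 with 1 gene that has no count in the Myc tumors set to its bound). They were Dll4, a ligand of growing vessels, Notch4, an endothelial receptor, Nrarp, a target gene and feedback inhibitor, and Lfng, which modifies the receptors. Nrarp had 33.5, 22.7 and 46.0 CPM in the grafts, against 6.45, 17.2, 5.97 and 3.72 CPM in the Myc tumors (log2 fold change 2.03 ± 0.48, adjusted p = 0.0304), and Dll4, Notch4 and Lfng rose by 1.496, 1.32 and 1.498. The summed level of 4 endothelial markers was also higher in every graft than in every Myc tumor. It was 291 to 373 CPM in the grafts and 54.3 to 188 CPM in the Myc tumors, and the part of endothelium in the Notch result was not tested. The 3 erythroid markers Hba-a1, Hbb-bs and Alas2 summed to 36.5 to 152 CPM in the grafts and 2.73 to 70.0 CPM in the Myc tumors, and the part of blood in the vascular and immune results was not tested.

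A few genes of blood-brain barrier endothelium were among those lower in the grafts. Of 15 tested, 3 fell and 12 did not pass the test, and there were 2 higher and 5 lower at an unadjusted p under 0.05 (median -0.58). The 3 markers Mfsd2a, Slco1c1 and Slc2a1 overlapped between the groups, at 217 to 719.5 CPM in the grafts and 291 to 353 CPM in the Myc tumors in sum, with a higher mean in the grafts (539 CPM, against 319.5 CPM in the Myc tumors). Of the 3, 1 was below 1 CPM in every graft and 0 were so in every Myc tumor. Slc2a1 was also listed among genes of hypoxia and glycolysis, so the sum does not stand for barrier endothelium alone. Slco1a4, an organic anion transporter of brain capillaries, had 0 counts in the 3 grafts, against 0.547, 0, 2.11 and 14.0 CPM in the Myc tumors, which made its mean at least 257-fold lower in the grafts (floor of 3 counts over the group). Myc tumor 2 had no count either. Foxq1, a forkhead factor of brain endothelium, had 0.0281, 0 and 0 CPM in the grafts, against 29.7, 0.886, 2.75 and 3.87 CPM in the Myc tumors, with 1 count in the grafts. The pooled level of Foxq1 in the Myc tumors was 961 times that in the grafts (95% counting interval 172 to 38000). Spock2, a proteoglycan, ranged over 1.66 to 5.56 CPM in the grafts and 14.98 to 121 CPM in the Myc tumors (log2 fold change -4.15 ± 1.10, adjusted p = 0.0412). Without any 1 graft at most 1 gene of the endothelial, pericyte, Notch and barrier lists was called in each (adjusted p of 0.0860 to 0.112 for Cdh5 and 0.0618 to 0.115 for Nrarp). Omitting Myc tumor 1, 2, 3 and 4 in turn, 4, 1, 1 and 1 endothelial genes were called higher, and without the same tumors 2, 2, 1 and 1 pericyte genes, 2, 1, 0 and 0 Notch genes and, as lower, 4, 3, 2 and 2 barrier genes were.

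**Figure D3:**
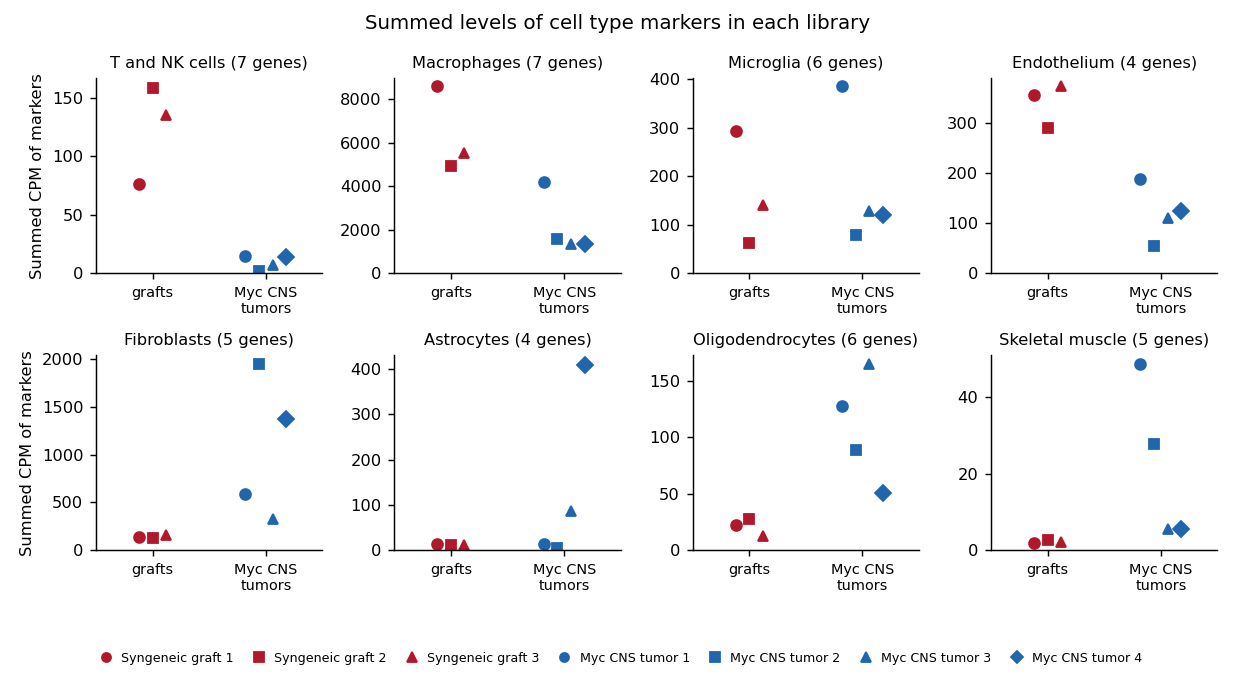
Summed CPM of fixed markers of 8 cell types in each of the 3 grafts (red, left) and 4 Myc CNS tumors (blue, right), on linear axes that start at 0. T and NK cell, macrophage and endothelial markers were higher in every graft than in every Myc tumor, fibroblast, oligodendrocyte and skeletal muscle markers were lower, and microglia and astrocyte markers overlapped.

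The largest decreases, by the same rule, were Crabp1, A2ml1, Fam19a1, Calca, Birc7, Aard, Ddc, Ptgfr, Bmp3, Ptn, Hapln1 and Crispld1. Crabp1, which binds retinoic acid in the cytosol, had 0.169, 0.129 and 0.167 CPM in the grafts, against 1439, 60.0, 1794 and 47.8 CPM in the Myc tumors (log2 fold change -12.38 ± 2.90, adjusted p = 0.0289). Ddc, the enzyme that makes dopamine and serotonin from their precursors, had 0.0563, 0.147 and 0.188 CPM in the grafts, against 63.3, 339.6, 38.6 and 591 CPM in the Myc tumors (log2 fold change -10.84 ± 2.55, adjusted p = 0.0292). Ptn, pleiotrophin, a growth factor of developing brain and mesenchyme, had 0.844, 1.70 and 0.334 CPM in the grafts, against 398, 6.26, 143 and 3213 CPM in the Myc tumors (log2 fold change -9.95 ± 1.92, adjusted p = 0.0167). The grafts lay below 2 CPM for the 3 genes, and the Myc tumors ranged over more than 10-fold. Calca, which encodes calcitonin and the neuropeptide CGRP, had 0, 0.221 and 0.136 CPM in the grafts, against 4.54, 0.469, 1039 and 29.3 CPM in the Myc tumors, with Myc tumor 3 far above the rest. Ptgfr, the prostaglandin F receptor, ranged over 0 to 0.203 CPM in the grafts and 19.2 to 296 CPM in the Myc tumors. Fam19a1, a secreted brain protein, and Birc7, an inhibitor of apoptosis, had 1 count each in the 3 grafts. The pooled level of Fam19a1 in the Myc tumors was 5180 times that in the grafts (95% counting interval 930 to 205000). For Birc7 it was 1060 times that in the grafts (95% counting interval 189 to 41700). A2ml1, a protease inhibitor, had 0.0281, 0.0369 and 0.0418 CPM in the grafts, against 120.3, 567, 0.0786 and 0.463 CPM in the Myc tumors, so that Myc tumor 1 and Myc tumor 2 carried its difference. For Aard, Bmp3, a ligand of the BMP family, Hapln1, which links hyaluronan to proteoglycans, and Crispld1 the log2 fold changes were -10.87, -10.20, -9.64 and -9.62. Without graft 1, graft 2 and graft 3, 1, 0 and 2 of the 12 were still called, with no change of sign, and the adjusted p of Crabp1 was 0.110 to 0.116.

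Genes of developmental signalling pathways were among those lower in the grafts. Of 33 Wnt pathway genes 6 fell (median log2 fold change -1.77). Dkk3, a secreted glycoprotein of the Dickkopf family, had 1.83, 2.45 and 2.58 CPM in the grafts, against 147, 49.6, 182 and 233 CPM in the Myc tumors (log2 fold change -6.06 ± 0.92, adjusted p = 0.00890). Lgr5, the R-spondin receptor of stem cells, had 0 counts in the 3 grafts, against 1.97, 0.574, 0.367 and 0.912 CPM in the Myc tumors, a mean at least 59.1-fold lower in the grafts (floor of 3 counts over the group). Notum, an extracellular enzyme that inactivates Wnt ligands, had 0.0563, 0.0184 and 0.0209 CPM in the grafts, against 2.13, 0.626, 6.75 and 11.4 CPM in the Myc tumors (log2 fold change -7.41 ± 1.46, adjusted p = 0.0168). The libraries of the groups did not overlap for these 3 genes. Sfrp1 and Sfrp4, secreted Wnt antagonists, ranged over 0.405 to 0.506 CPM in the grafts and 1.03 to 9.18 CPM in the Myc tumors for Sfrp1, and 0.0563 to 0.146 CPM in the grafts and 0.344 to 137 CPM in the Myc tumors for Sfrp4. Lgr6, a further R-spondin receptor, fell by 6.68 on the log2 scale, and Myc tumor 4, at 65.8 CPM, stood far above the other 3. Without graft 1, 2 and 3 the count of Wnt genes was 2, 0 and 2, and without Myc tumor 1, 2, 3 and 4 it was 6, 7, 6 and 6.

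Of 36 BMP and TGF-beta pathway genes 6 fell and 1 rose (median -1.74), and the 2.78% that rose lies below the 3.12% of all genes. Smad7, an inhibitor that the pathway induces, had 8.97, 19.6 and 22.01 CPM in the grafts, against 48.2, 135, 70.7 and 80.5 CPM in the Myc tumors (log2 fold change -2.31 ± 0.48, adjusted p = 0.0196). Gdf10 and Bmp3, ligands, had log2 fold changes of -5.29 ± 1.12 and -10.20 ± 2.47. Fst, follistatin, which binds activin, had 0.0563, 0.0737 and 0.178 CPM in the grafts, against 4.21, 1.20, 128 and 5.13 CPM in the Myc tumors (log2 fold change -8.29 ± 2.01, adjusted p = 0.0315), with Myc tumor 3 highest. Gdf15, a distant member of the family that stress induces, rose, with 2.98, 10.8 and 2.69 CPM in the grafts, against 0.383, 0.156, 0.655 and 0.418 CPM in the Myc tumors (log2 fold change 3.72 ± 0.92, adjusted p = 0.0333). Of 18 Hedgehog pathway genes 2 fell, Gli1, a transcriptional effector and target, and Hhip, a ligand-binding antagonist that is also a target. Gli1 had 0.0844, 0.387 and 0.272 CPM in the grafts, against 10.3, 0.626, 7.85 and 3.87 CPM in the Myc tumors (log2 fold change -4.47 ± 0.96, adjusted p = 0.0224), and Hhip had 0.113, 0.0737 and 0.0522 CPM in the grafts, against 3.50, 11.2, 2.85 and 1.02 CPM in the Myc tumors (log2 fold change -5.88 ± 1.15, adjusted p = 0.0167). Both groups stood apart for these genes, although Myc tumor 2 had a Gli1 level close to that of graft 2. Of 43 receptor tyrosine kinases and ligands 5 fell (median -1.70). Fgf7, a ligand that mesenchyme sends to epithelium, had 0.169, 0.111 and 0.439 CPM in the grafts, against 12.4, 2.82, 254 and 29.7 CPM in the Myc tumors (log2 fold change -8.23 ± 1.63, adjusted p = 0.0168). Its relative Fgf10, the Wnt5a receptor Ror2, the ephrin receptor Epha7 and the neurotrophin receptor Ntrk3 had log2 fold changes of -6.83, -5.54, -5.25 and -3.01. The calls of the BMP and TGF-beta, Hedgehog and receptor tyrosine kinase genes that were lower in the grafts were lost without any 1 graft, with adjusted p of 0.0609 to 0.0911 for Smad7, 0.0691 to 0.0934 for Gli1 and 0.0639 to 0.0815 for Fgf7. Without Myc tumor 1, 2, 3 and 4, 5, 6, 4 and 5 BMP and TGF-beta genes were called lower, and without the same tumors 2, 2, 2 and 3 Hedgehog genes and 4, 6, 4 and 4 receptor tyrosine kinase genes were.

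**Figure D4:**
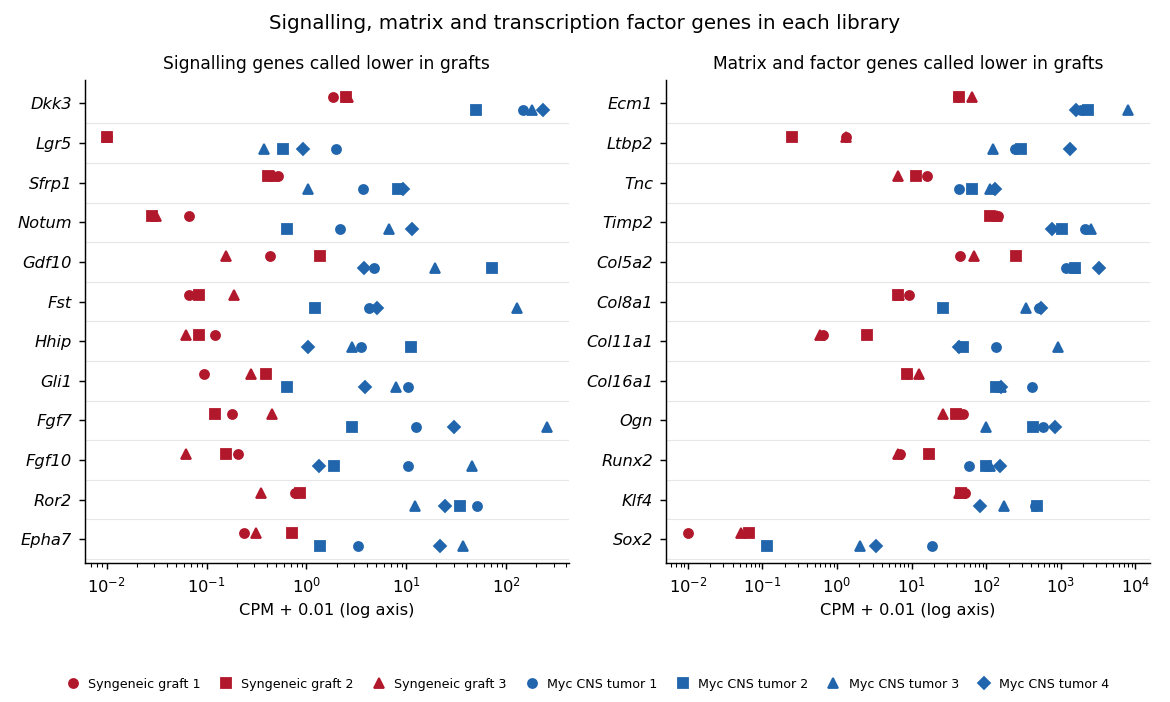
Level of 12 signalling genes (left) and 12 matrix and transcription factor genes (right) that were called lower in the grafts, in each library, as CPM + 0.01 on a log axis. Red symbols are the 3 grafts and blue symbols the 4 Myc CNS tumors. Lgr5 sits at the left edge because the grafts had no count, and Col8a1 is lowest among the blue symbols in Myc tumor 2, at 26.2 CPM.

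Matrix genes were among those lower in the grafts. Of 31 genes of matrix and matricellular proteins 5 fell and 1 rose (median log2 fold change -1.44), and of 39 collagen genes 4 fell (median -1.09). Ecm1, a secreted glycoprotein of skin and other tissue, had 42.1, 42.6 and 65.2 CPM in the grafts, against 1869, 2305, 7962 and 1609 CPM in the Myc tumors (log2 fold change -6.10 ± 0.99, adjusted p = 0.00973). Ltbp2, which associates with elastic microfibrils, had 1.29, 0.240 and 1.32 CPM in the grafts, against 240.0, 289, 122 and 1342 CPM in the Myc tumors (log2 fold change -9.03 ± 1.85, adjusted p = 0.0188). Tnc, tenascin C, a matrix protein of developing and injured tissue, ranged over 6.55 to 16.2 CPM in the grafts and 42.7 to 133 CPM in the Myc tumors (log2 fold change -2.94 ± 0.60, adjusted p = 0.0188). Acan, the proteoglycan aggrecan, and Lama1, a laminin chain, had log2 fold changes of -7.74 and -8.61. Lama1 was high in Myc tumor 1, at 247 CPM, and 0.209 to 1.30 CPM in the other Myc tumors. Nid2, a basement membrane linker, was the gene that rose (80.6 ± 21.7 CPM in the grafts and 34.5 ± 5.22 CPM in the Myc tumors, SD, n = 3 and 4). It made up 3.23% of the matrix list, near the 3.12% of all genes. Among collagens, Col8a1, of vessel and eye basement membranes, had 9.14, 6.54 and 6.79 CPM in the grafts, against 511, 26.2, 337 and 549 CPM in the Myc tumors (log2 fold change -5.57 ± 0.99, adjusted p = 0.0131). Col5a2, a chain of fibril collagens, had 43.9, 253 and 68.2 CPM in the grafts, against 1194, 1567, 1548 and 3233 CPM in the Myc tumors (log2 fold change -3.95 ± 0.85, adjusted p = 0.0227), and graft 2 was the highest graft. Col11a1, a cartilage collagen chain, and Col16a1, a fibril-associated collagen, had log2 fold changes of -7.82 and -4.43. Timp2, an inhibitor of matrix proteases, averaged 134 ± 17.2 CPM in the grafts and 1612 ± 857 CPM in the Myc tumors (log2 fold change -3.59 ± 0.80, adjusted p = 0.0256), and Adamts12, a matrix protease, rose by 2.51 ± 0.49. They were the members called of 28 matrix proteases and crosslinkers, which is 3.57% in each direction and near the share of all genes. The collagen genes lost their calls without any 1 graft (adjusted p of 0.0552 to 0.0587 for Col8a1), and at most 1 matrix gene kept its call (0.0416 to 0.0530 for Ecm1). With Myc tumor 1, 2, 3 or 4 left out in turn, 7, 6, 5 and 5 collagen genes were called lower, and without the same tumors 5, 5, 5 and 4 matrix genes were.

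Few mesenchymal transcription factors were called by edgeR. Of 41 mesenchymal and neural crest factors 3 fell and 1 rose (median -2.32), and the 2.44% that rose lies below the 3.12% of all genes. More were called by the other tools, with 5 higher and 16 lower by DESeq2 and 4 higher and 15 lower by limma voom. At an unadjusted p under 0.05 in edgeR, 5 were higher and 17 lower. Runx2, the master factor of bone formation, had 7.03, 16.97 and 6.56 CPM in the grafts, against 59.5, 99.7, 113 and 154 CPM in the Myc tumors (log2 fold change -3.39 ± 0.86, adjusted p = 0.0369). Tbx5, a factor of heart and forelimb, was the one that rose, at low levels of 0.324 to 0.591 CPM in the grafts and 0 to 0.0448 CPM in the Myc tumors. The Myc tumors held 3 counts, and the pooled level of the grafts was 28.7 times that in the Myc tumors (95% counting interval 9.44 to 142). Ogn, osteoglycin, a matrix proteoglycan of fibroblasts, was the member called among 22 fibroblast genes (4.55%, against 2.88% of all genes). It had 48.4, 39.0 and 26.7 CPM in the grafts, against 575, 423, 99.2 and 847 CPM in the Myc tumors (log2 fold change -3.68 ± 0.83, adjusted p = 0.0257). Dcn, the proteoglycan decorin, ranged over 13.9 to 34.8 CPM in the grafts and 141 to 675 CPM in the Myc tumors and was not called (adjusted p = 0.0975). The 5 fibroblast markers Pdgfrb, Dcn, Dpt, Lum and Pi16 summed to 129.5 to 155 CPM in the grafts and 328 to 1952 CPM in the Myc tumors, and their part in the collagen and matrix results was not tested. The calls of Runx2 and Ogn were lost without any 1 graft (adjusted p of 0.0875 to 0.147 and 0.0916 to 0.105). Of 36 Hox genes, which set position along the body axis, edgeR called 0 (2 higher and 2 lower at an unadjusted p under 0.05, 1 higher and 1 lower by DESeq2, 7 higher and 0 lower by limma voom). Hoxd10 ranged over 18.9 to 21.3 CPM in the grafts and 0 to 1.75 CPM in the Myc tumors (adjusted p = 0.0917), and Hoxc8 over 7.45 to 10.9 CPM in the grafts and 13.3 to 128 CPM in the Myc tumors (adjusted p = 0.0717).

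Some genes of brain tissue were among those lower in the grafts. Of 16 astrocyte and radial glia genes 4 fell (median log2 fold change -4.53), and of 24 neuronal genes 3 fell (median -1.65). Gfap, the intermediate filament of astrocytes, had 0.563, 0.295 and 0.261 CPM in the grafts, against 7.11, 1.56, 50.3 and 273 CPM in the Myc tumors (log2 fold change -7.83 ± 1.63, adjusted p = 0.0200). Aqp4, the water channel of astrocyte endfeet, had 0.0563, 0 and 0 CPM in the grafts, against 0.656, 0.0521, 15.02 and 67.1 CPM in the Myc tumors, with 2 counts in the grafts and an overlap of graft 1 with Myc tumor 2. The pooled level of Aqp4 in the Myc tumors was 2640 times that in the grafts (95% counting interval 730 to 21800). Ttyh1, a chloride channel protein of neural progenitors and glia, had 5.26, 3.48 and 3.25 CPM in the grafts, against 213, 219.8, 92.8 and 29.5 CPM in the Myc tumors (log2 fold change -5.12 ± 1.23, adjusted p = 0.0310). Gjb6, the astrocyte connexin 30, had no count in the grafts, against 1.37, 0.0521, 0.751 and 1.97 CPM in the Myc tumors, and was at least 64.1-fold lower in the grafts (floor of 3 counts over the group). Myc tumor 4 was highest for Gfap and Aqp4, and Myc tumor 2 was highest for Ttyh1. Among the neuronal genes called, Slc32a1, the vesicular transporter of GABA, ranged over 0 to 0.0563 CPM in the grafts and 0.164 to 1.001 CPM in the Myc tumors, with 2 counts in the grafts. The pooled level of Slc32a1 in the Myc tumors was 44.5 times that in the grafts (95% counting interval 12 to 372). Cldn11, a claudin of myelin, was the member called among 16 oligodendrocyte genes, with 0.0209 to 0.0563 CPM in the grafts and 1.30 to 16.6 CPM in the Myc tumors (log2 fold change -7.76 ± 1.86, adjusted p = 0.0306). The 4 astrocyte markers Gfap, Aqp4, Aldh1l1 and Slc1a2 summed to 10.6 to 12.5 CPM in the grafts and 4.22 to 411 CPM in the Myc tumors, and 3 of them were below 1 CPM in every graft. The 6 oligodendrocyte markers summed to 12.1 to 27.3 CPM in the grafts and 51.0 to 165 CPM in the Myc tumors, with 4 below 1 CPM in every graft. The 7 neuron markers overlapped between the groups, at 157 to 215 CPM in the grafts and 96.9 to 560.0 CPM in the Myc tumors in sum, and every graft exceeded Myc tumor 2. Whether these transcripts came from brain tissue within the tumor samples was not tested. The astrocyte and neuronal genes lost their calls without any 1 graft (adjusted p of 0.0815 to 0.0860 for Gfap and 0.0588 to 0.139 for Slc32a1). Omitting Myc tumor 1, 2, 3 and 4 in turn, 3, 6, 3 and 2 astrocyte genes were called, and without the same tumors 3, 4, 3 and 2 neuronal genes were.

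Of 13 genes of the meninges 3 fell. Crabp2, a retinoic acid carrier, had 0.9002, 1.20 and 0.856 CPM in the grafts, against 13.3, 6.15, 5.39 and 51.0 CPM in the Myc tumors (log2 fold change -4.27 ± 0.98, adjusted p = 0.0275). Foxd1, a forkhead factor of stromal precursors, and Ptgds, prostaglandin D synthase of the meninges, had log2 fold changes of -8.76 and -7.13. Ptgds was highest in Myc tumor 1, at 81.5 CPM. Of 30 brain patterning factors 2 fell. One of them was Neurod1, a proneural factor, which ranged over 0 to 0.0184 CPM in the grafts and 0.0521 to 0.515 CPM in the Myc tumors. The genes called in both lists lost their calls without any 1 graft (adjusted p of 0.0947 to 0.112 for Crabp2 and 0.113 to 0.146 for Neurod1). Markers of flank tissue were low in the grafts. The 5 skeletal muscle markers Acta1, Myh4, Ckm, Mylpf and Tnnt3 summed to 1.74 to 2.54 CPM in the grafts and 5.404 to 48.6 CPM in the Myc tumors. The 5 keratinocyte markers Krt5, Krt14, Krt1, Krt10 and Trp63 summed to 1.35 to 1.49 CPM in the grafts and 1.63 to 35.1 CPM in the Myc tumors.

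Myc itself did not separate the groups. Myc, the growth-promoting transcription factor, had 163, 153 and 104 CPM in the grafts, against 133, 165, 97.3 and 113 CPM in the Myc tumors (log2 fold change 0.14 ± 0.35, adjusted p = 0.852). Mycn, its relative, was below 1 CPM in every library of both groups. Of 13 genes of the Myc and Max network edgeR called 0 (1 higher and 1 lower at an unadjusted p under 0.05, 0 higher and 1 lower by DESeq2, 1 higher and 1 lower by limma voom). Of 38 ribosome biogenesis genes, many of them targets of Myc, edgeR also called 0 (0 higher and 0 lower at an unadjusted p under 0.05, 0 higher and 0 lower by DESeq2, 0 higher and 0 lower by limma voom), with a median log2 fold change of 0.05, against -0.11 over all genes. Of 31 SWI/SNF subunits edgeR called 0 as well (3 higher and 2 lower at an unadjusted p under 0.05, 1 higher and 1 lower by DESeq2, 3 higher and 0 lower by limma voom). Smarcd2, the subunit with the smallest adjusted p, ranged over 83.2 to 90.5 CPM in the grafts and 55.2 to 58.8 CPM in the Myc tumors (adjusted p = 0.0527). Among 16 oncofetal and pluripotency genes 2 fell. Klf4, a factor of pluripotent and epithelial cells, had 51.6, 46.3 and 43.5 CPM in the grafts, against 450.2, 481, 175 and 81.8 CPM in the Myc tumors (log2 fold change -2.66 ± 0.62, adjusted p = 0.0289). Sox2, a factor of pluripotent and neural stem cells, had 0, 0.0553 and 0.0418 CPM in the grafts, against 18.8, 0.104, 2.05 and 3.35 CPM in the Myc tumors (log2 fold change -7.30 ± 1.43, adjusted p = 0.0167), and the level of Myc tumor 2 was close to that of the grafts. Hmga2, an oncofetal chromatin protein, and Igf2bp1, an oncofetal RNA-binding protein, were not called. Hmga2 had 311, 247 and 495 CPM in the grafts, against 506, 794, 504 and 371 CPM in the Myc tumors. Igf2bp1 had 40.1, 50.8 and 87.6 CPM in the grafts, against 1.04, 141, 7.73 and 79.8 CPM in the Myc tumors, so that the Myc tumors ranged on either side of the grafts. Klf4 and Sox2 lost their calls without any 1 graft (adjusted p of 0.0995 to 0.107 and 0.0647 to 0.0758).

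Pcna was the one cell cycle gene called. It was 1 of 35 genes of cell cycle and replication tested, a share near the 3.12% of all genes, but 34 had a log2 fold change above 0 (median 0.84), and the count called higher was 11 by DESeq2 and 16 by limma voom. Pcna, the sliding clamp of DNA replication, had 232, 215 and 244 CPM in the grafts, against 118, 112, 107 and 124 CPM in the Myc tumors (log2 fold change 0.998 ± 0.26, adjusted p = 0.0411). Mcm3, a subunit of the replicative helicase, and Top2a, a topoisomerase of dividing cells, ranged over 176 to 191 CPM in the grafts and 77.1 to 105 CPM in the Myc tumors for Mcm3, and 321 to 377 CPM in the grafts and 127 to 191 CPM in the Myc tumors for Top2a, without overlap but with adjusted p = 0.0671 and 0.0699. Without graft 1, graft 2 or graft 3 Pcna was not called (adjusted p = 0.107 to 0.130). Dnmt1, which copies DNA methylation at replication, had 303, 238 and 286 CPM in the grafts, against 163, 127, 146 and 154 CPM in the Myc tumors (log2 fold change 0.90 ± 0.19, adjusted p = 0.0196), and Morc3, a silencing factor of retroelements, rose by 0.72 ± 0.18. Both lost their calls without any 1 graft (adjusted p of 0.0541 to 0.0926 and 0.0748 to 0.138). They were the 2 genes called among 20 of DNA methylation and retroelement silencing. Trp53, the tumor suppressor p53, averaged 250.4 ± 4.27 CPM in the grafts and 160.5 ± 16.8 CPM in the Myc tumors and was not called (log2 fold change 0.64 ± 0.23, adjusted p = 0.106). The tumor suppressor locus Cdkn2a ranged over 62.6 to 69.1 CPM in the grafts and 25.1 to 102 CPM in the Myc tumors. Of 22 cell cycle inhibitors and p53 targets edgeR called 0 (5 higher and 2 lower at an unadjusted p under 0.05, 1 higher and 1 lower by DESeq2, 3 higher and 1 lower by limma voom). Nr4a1, an immediate early nuclear receptor, fell, 1 of 20 immediate early and heat shock genes (5%, against 2.88% of all genes). It had 25.04, 30.3 and 19.5 CPM in the grafts, against 263, 91.0, 77.2 and 56.3 CPM in the Myc tumors (log2 fold change -2.29 ± 0.57, adjusted p = 0.0348).

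Among the autosomes and the X chromosome, chromosome 6 held the largest share of genes called higher. Chromosome 19 (5.21%) and chromosome 17 (4.81%) came next. On chromosome 6, 84 of 1229 genes tested were called higher (6.83%, against 3.12% of all genes), and 31 were called lower (2.52%, against 2.88%). The chromosome carries clusters of immune receptor genes. Genes whose symbols begin with Clec, Klr, Trb or Gimap, families chosen after their values were seen, made up 32 of the 84, from 77 tested, and the other 52 came from 1152 genes. The level of the whole chromosome also differed in 1 graft. Over the genes with a mean of at least 10 CPM, the median difference in log2(CPM + 1) from the Myc tumor median on chromosome 6 was 0.430 in graft 3, against 0.075 and 0.057 in graft 1 and graft 2. In graft 3 the median was -0.220 on chromosome 4 and -0.171 on chromosome 10. Each of the other medians of autosomes lay between -0.098 and 0.087 in the 3 grafts. Without graft 3, 15 of 1245 genes of chromosome 6 were called higher (1.2%, against 0.603% of all genes). Without graft 1, 14 of 1306 were (1.07%, against 0.392%), and without graft 2, 5 of 1253 (0.399%, against 0.211%). Of the genes described above as higher, Clec9a, Cd4, Lag3, Klrk1, Trbc2, Abcc9, Kcnj8 and Pparg lie on chromosome 6. Genes described as lower are not listed here by chromosome. Whether the copy number of these chromosomes differed was not tested.

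**Figure D5:**
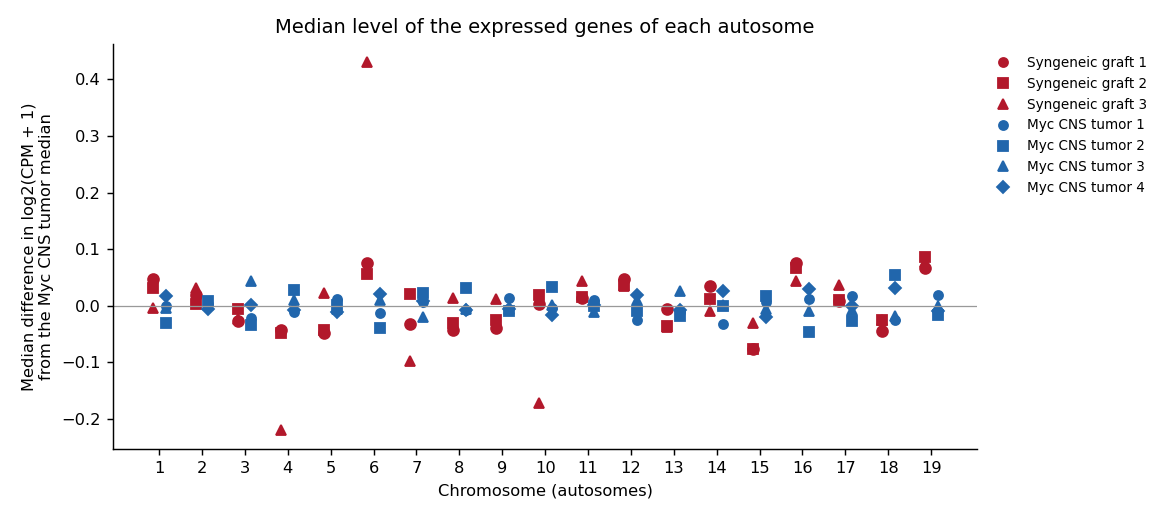
Median difference in log2(CPM + 1) from the median of the 4 Myc CNS tumors, over the expressed genes of each autosome, for each of the 3 grafts (red) and 4 Myc CNS tumors (blue). Graft 3 stands apart on chromosomes 4, 6 and 10, at -0.220, 0.430 and -0.171.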

How the data were processed

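Bulk RNA of 17 mouse samples was measured by sequencing of TruSeq Stranded mRNA libraries made from miRNeasy-isolated, DNase-treated RNA, per the labels' protocols. The deposited files hold whole-number counts of reads per Ensembl gene, which the authors did not normalize, for 50600 gene IDs per library. STAR 2.5.3a and mm10 are named in the submitters' processing notes. Neither the counting tool nor its strand setting nor the annotation release is given in the sources used here. Overlapping genes may share reads. Symbols and positions came from the GENCODE vM21 annotation (GRCm38), which matched 45737 IDs with their version and 50376 without it.

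Counts of the 5 groups were fitted together in edgeR 4.0.16 (R 4.3.3) with TMM factors, a filter at a minimum count of 10 (21494 genes, 99.96% of counts) and the robust quasi-likelihood test of graft against Myc tumor. P-values were adjusted over all genes tested by Benjamini-Hochberg. With 3 and 4 libraries a group, the spread between libraries limits the precision more than depth does; the chi-square between libraries of 1 group was 90.0 or more per gene among the grafts and Myc tumors, so neither group holds a repeat of a library. Ratios of pooled counts have exact 95% intervals, and floors are 3 counts over a group; both cover counting error only.

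The genes and gene lists were chosen with earlier results of these data known, so no list was tested as a whole. Named genes are the 12 largest called increases and 12 largest called decreases with a mean of at least 10 CPM in the higher group, no overlap of libraries and an ordinary symbol, a set of 9 fixed genes, up to 6 members of each list with the smallest adjusted p, markers needed for a cell type, and at most 5 chosen after their values were seen (Gh, Prl, Pomc and H2-T23). Some genes that the rule names are not reported here. Alternatives were RLE size factors, no filter, a minimum count of 50, DESeq2 1.42.0, limma 3.58.1 (voom with quality weights), the 7 libraries alone, the library number as a block, Ddx3y as a covariate, and each of the 7 libraries left out. The fit was tested on simulated counts, with 50 genes changed at each fold. At 1.5-fold 1 of the 50 was recovered, at 2-fold 2, at 4-fold 22 and at 8-fold 39. Among the unchanged genes 0 were called. A gene or list that was not called may therefore hold a difference that the fit missed. The simulation gave each gene the same spread in every group, whereas the Myc tumors varied more than the grafts. It therefore does not measure false calls in these data. Figures were drawn with matplotlib 3.10.9 in Python 3.11.15.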

Additional observations from a re-analysis of the deposited data

Results flagged for a closer look

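Among the 164 named genes tested for a stray library, 18 had 1 Myc tumor far from the other 3. The measure is the gap of the highest or lowest library to its nearest neighbour as a share of the range of log2(CPM + 1) over the 4 Myc tumors, and values above Dixon's 95% critical value are listed. Chance alone gives such a value in about 1 in 20 groups. Groups of 3, as the grafts are, were not tested in this way.

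Myc tumor 1 was the high library for 9 genes. The share was 0.922 for Gh, 0.983 for Prl and 0.903 for Pomc, which encode pituitary hormones, at 71.4, 56.1 and 64.3 CPM. For H2-DMa and Fcgr2b, genes of antigen-presenting and myeloid cells, it was 0.984 and 0.863, and Myc tumor 1 stood at 50.3 and 259.6 CPM. For Lama1, Col16a1 and Ptgds it was 0.879, 0.872 and 0.874, and for Car4 it was 0.858. Each library value of Car4 in the Myc tumors was below 3 CPM.

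Myc tumor 4 was the high library for 6 genes. For Lgr6, the R-spondin receptor, the share was 0.986, with 65.8 CPM against at most 1.04 CPM in the other Myc tumors. For Gbp2b, Acot5, Apol7c, Tbx5 and Slc32a1 it was 0.84, 0.85, 1.0, 1.0 and 0.838, and the level in Myc tumor 4 was highest for Slc32a1, at 1.001 CPM.

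Myc tumor 2 was the low library for Tlr9 (0.837, at 2.40 CPM) and for Col8a1 (0.838, at 26.2 CPM), and Myc tumor 3 was the low library for Acot3 (0.875), where it had no count.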

How the results depend on the processing

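The comparison gave 670 genes higher and 620 lower in the grafts, and its counts stayed within 1.5 times these under RLE size factors, a minimum count of 50, the 7 libraries alone and Ddx3y as a covariate. Similar counts did not mean the same genes. The 7 libraries alone gave 901 higher and 606 lower, which held 530 of the 670 and 320 of the 620. In that fit 12 of the 12 largest increases and 6 of the 12 largest decreases were called. Without a filter on low counts 466 genes were called higher and 343 lower, with more genes tested. DESeq2 called 1530 higher and 2223 lower, and limma voom 2108 and 1922. With 1 library left out, 46 to 588 genes were called higher and 12 to 781 lower, the lowest without graft 2. With 1 graft left out, 2 grafts remained, and the smallest adjusted p over all genes was 0.000618 to 0.025. Of 140 named calls, none reversed under any alternative. The calls were kept for 138 under RLE, 107 without a filter, 112 with the Ddx3y covariate, 106 of 139 tested in the 7 libraries alone, 136 of 136 with a DESeq2 adjusted p, 135 under limma voom and 93 to 116 without 1 Myc tumor.

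With the library number as a replicate block, 349 genes were called higher and 229 lower over all 17 libraries, and 7 and 12 over the 7 libraries alone. Of the named calls, 68 of 140 were kept with the block over all 17 libraries, and 11 of 139 tested over the 7. The library numbers do not pair the samples: the deviations of same-numbered grafts and Myc tumors correlated at -0.016, -0.028 and -0.004 over genes. Genes with under 10 counts in a group were also limited by depth.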
